A study of Mus musculus with 19 samples.

Results

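Nfil3 and 9 genes of the circadian clock (Dbp, Tef, Hlf, Per1, Per2, Nr1d1, Nr1d2, Bhlhe40 and Arntl, also called Bmal1) were followed through an endoplasmic reticulum (ER) stress time course. They were chosen by name, with earlier results of these data known, and all 10 were found among the 55401 gene identifiers of the count files. All 10 also passed the filter on low counts, which left 18039 genes for testing. The cells were C2C12, a wild-type mouse myoblast line that can fuse into myotubes. They received 100 nM thapsigargin, which blocks the calcium pump SERCA and so empties the calcium store of the ER, or the vehicle DMSO. The 7 groups were thapsigargin for 2 h (3 libraries), 6 h (3) and 12 h (2), recovery, which had thapsigargin for 6 h and drug-free medium for the next 48 h (3), and DMSO for 2 h (3), 6 h (3) and 12 h (2). All groups were grown in medium with 10% serum, and no group had another genotype. Whether replicates came from separate cultures is not stated in the labels, and the spread that enters the p-values may therefore be technical.

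The clock of mammalian cells is a feedback loop of transcription. Arntl pairs with Clock to switch on genes through E-boxes, and its targets include Per1 and Per2, whose proteins hold Arntl and Clock back, and Nr1d1 and Nr1d2, whose proteins repress Arntl. An output arm runs through the D-box, which the related bZIP factors Dbp, Tef and Hlf activate and the bZIP factor Nfil3 represses. In cultured cells a change of medium or serum can set the phase of this loop, and Per1, Per2 and Bhlhe40 also respond within hours to calcium and growth signals. Nfil3 is known as well for roles in lymphocyte development and in cell survival.

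The libraries held 17305962 to 40964140 reads assigned to genes. Mitochondrially encoded genes took 15.8% of them in replicate 3 of DMSO at 2 h and 14.89% in replicate 1 of recovery, against 1.41% to 3.07% in the other 17 libraries. Long transcripts stood higher relative to short ones in the 2 h and 12 h libraries (0.63 to 0.99 and 0.43 to 0.60 on the log2 scale, against the mean of all libraries) than in the 6 h and recovery libraries (-1.31 to 0.03 and -1.48 to -0.10). Time and this property of the libraries moved together, so values with a correction for transcript length and GC content are given where they change a call of the 10 genes or the size of a difference. The stress markers Atf4, Ddit3 and Hspa5 were called higher with thapsigargin at all 3 times. In DMSO alone 2 of these 3 (Ddit3 and Atf4) were called higher at 6 h than at 2 h, where 24.6% of all genes rose. Atf4 was called lower in DMSO at 12 h than at 6 h, where 16.8% of all genes fell. All 6 myoblast markers were detected in every group, with summed levels of 529 to 4782 CPM (read counts relative to library sizes scaled by the TMM method) over the 19 libraries. Markers of other cell types summed to 2.51 to 11.3 CPM for macrophages, 0.509 to 4.87 for endothelium, 0.572 to 28.6 for epithelium, 12.5 to 76.1 for adipocytes and 27.8 to 305 for osteoblasts. The epithelial sum was 15.8 to 28.6 CPM with thapsigargin at 6 h and 1.14 to 3.33 with DMSO at 6 h, with Epcam at 0 in every library. Of the 4 epithelial markers tested, 3 were called higher there (Krt18, Krt8 and Cldn4). The endothelial sum was 2.62 to 4.87 CPM with thapsigargin at 6 h and 0.509 to 0.621 with DMSO at 6 h, with Tie1 under 1 CPM in every library and 3 of 3 tested markers called higher (Cdh5, Kdr and Tek). The adipocyte sum was 56.9 to 76.1 CPM with thapsigargin at 6 h and 17.8 to 28.3 with DMSO at 6 h, with Adipoq and Plin1 under 1 CPM in every library. Of the 3 adipocyte markers tested, Pparg and Cebpa were called there in opposite directions, 1 higher and 1 lower. Of the 6 myoblast markers, 3 were lower with thapsigargin at 6 h (Myf5, Pax7 and Cdh15) and 1 was higher (Msc). Of all genes, 8.79% fell and 13% rose with thapsigargin at 6 h. In DMSO at 12 h against 6 h, 4 of the 6 myoblast markers and 5 of 6 markers of differentiated muscle fell, where 16.8% of all genes did. The part of these shifts in the results was not tested. In such bulk samples fewer cells of a type and less RNA per cell cannot be told apart.

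The promoters of 4 of these genes are printed first because their RNA levels carry the results below: Nfil3, and the D-box activators Dbp, Tef (at its second annotated start site) and Hlf. Per1 is added because a textbook clock element was found in it. Each window is 300 bases, 250 before and 50 after the start site, from RefSeq on GRCm38.p6, and capitals mark the motif found.
Nfil3, chr13:52980990-52981289, minus strand: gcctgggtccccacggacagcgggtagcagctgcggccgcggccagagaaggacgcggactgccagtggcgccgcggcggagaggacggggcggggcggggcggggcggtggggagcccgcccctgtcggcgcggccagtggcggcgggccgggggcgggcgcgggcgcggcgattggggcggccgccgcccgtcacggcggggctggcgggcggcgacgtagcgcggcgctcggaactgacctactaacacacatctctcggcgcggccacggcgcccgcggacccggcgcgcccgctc
Dbp, chr7:45704997-45705296, plus strand: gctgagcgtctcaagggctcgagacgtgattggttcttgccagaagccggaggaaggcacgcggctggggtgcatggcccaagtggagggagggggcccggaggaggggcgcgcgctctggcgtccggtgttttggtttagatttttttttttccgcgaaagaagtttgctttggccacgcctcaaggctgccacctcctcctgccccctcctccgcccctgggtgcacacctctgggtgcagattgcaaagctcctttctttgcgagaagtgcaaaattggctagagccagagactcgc
Tef, chr15:81811164-81811463, plus strand: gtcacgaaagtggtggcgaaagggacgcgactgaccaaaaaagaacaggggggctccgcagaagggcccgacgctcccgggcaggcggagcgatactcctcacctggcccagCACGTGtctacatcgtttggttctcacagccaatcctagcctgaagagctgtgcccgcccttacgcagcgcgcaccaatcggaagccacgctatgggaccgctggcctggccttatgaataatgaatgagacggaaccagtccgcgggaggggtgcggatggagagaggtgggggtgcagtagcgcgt
Hlf, chr11:90390868-90391167, minus strand: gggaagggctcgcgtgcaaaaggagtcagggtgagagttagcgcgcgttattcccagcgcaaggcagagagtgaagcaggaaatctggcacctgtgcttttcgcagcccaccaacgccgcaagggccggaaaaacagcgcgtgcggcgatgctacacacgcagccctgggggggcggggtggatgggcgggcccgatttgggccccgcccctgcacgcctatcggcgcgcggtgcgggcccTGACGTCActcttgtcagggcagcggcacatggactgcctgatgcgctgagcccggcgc
Per1, chr11:69098699-69098998, plus strand: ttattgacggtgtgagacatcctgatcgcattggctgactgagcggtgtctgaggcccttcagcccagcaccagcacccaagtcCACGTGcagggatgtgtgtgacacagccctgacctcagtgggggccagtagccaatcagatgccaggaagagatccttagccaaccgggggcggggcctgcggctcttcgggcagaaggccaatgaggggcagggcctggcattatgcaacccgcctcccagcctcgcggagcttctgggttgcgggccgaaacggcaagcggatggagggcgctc

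The motifs searched on both strands were the E-box (CACGTG), the D-box (TTATGTAA or TTACGTAA), the cAMP response element (CRE, TGACGTCA), the composite element of CEBP and ATF factors (TGATGNAA) and the ROR response element through which Nr1d1 and Nr1d2 act. RefSeq windows were matched for 8 of the 10 genes, 11 windows in all, with Per2 and Bhlhe40 unmatched. Of 32851 promoter windows of all genes, 7.15% held the E-box, 1.06% the D-box, 1.79% the CRE, 3.97% the CEBP-ATF element and 0.384% the ROR element. The Hlf window held a CRE 9 to 2 bases before the start. The Tef windows each held an E-box, beginning 127 and 138 bases before their starts, and 1 of the Per1 windows held an E-box 166 to 161 bases before its start. The second Arntl window held a ROR element 26 to 36 bases after its start. No other match was found, no matches overlapped, and the absence of these letters from a window of this length says nothing about a factor.

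**Figure D1:**
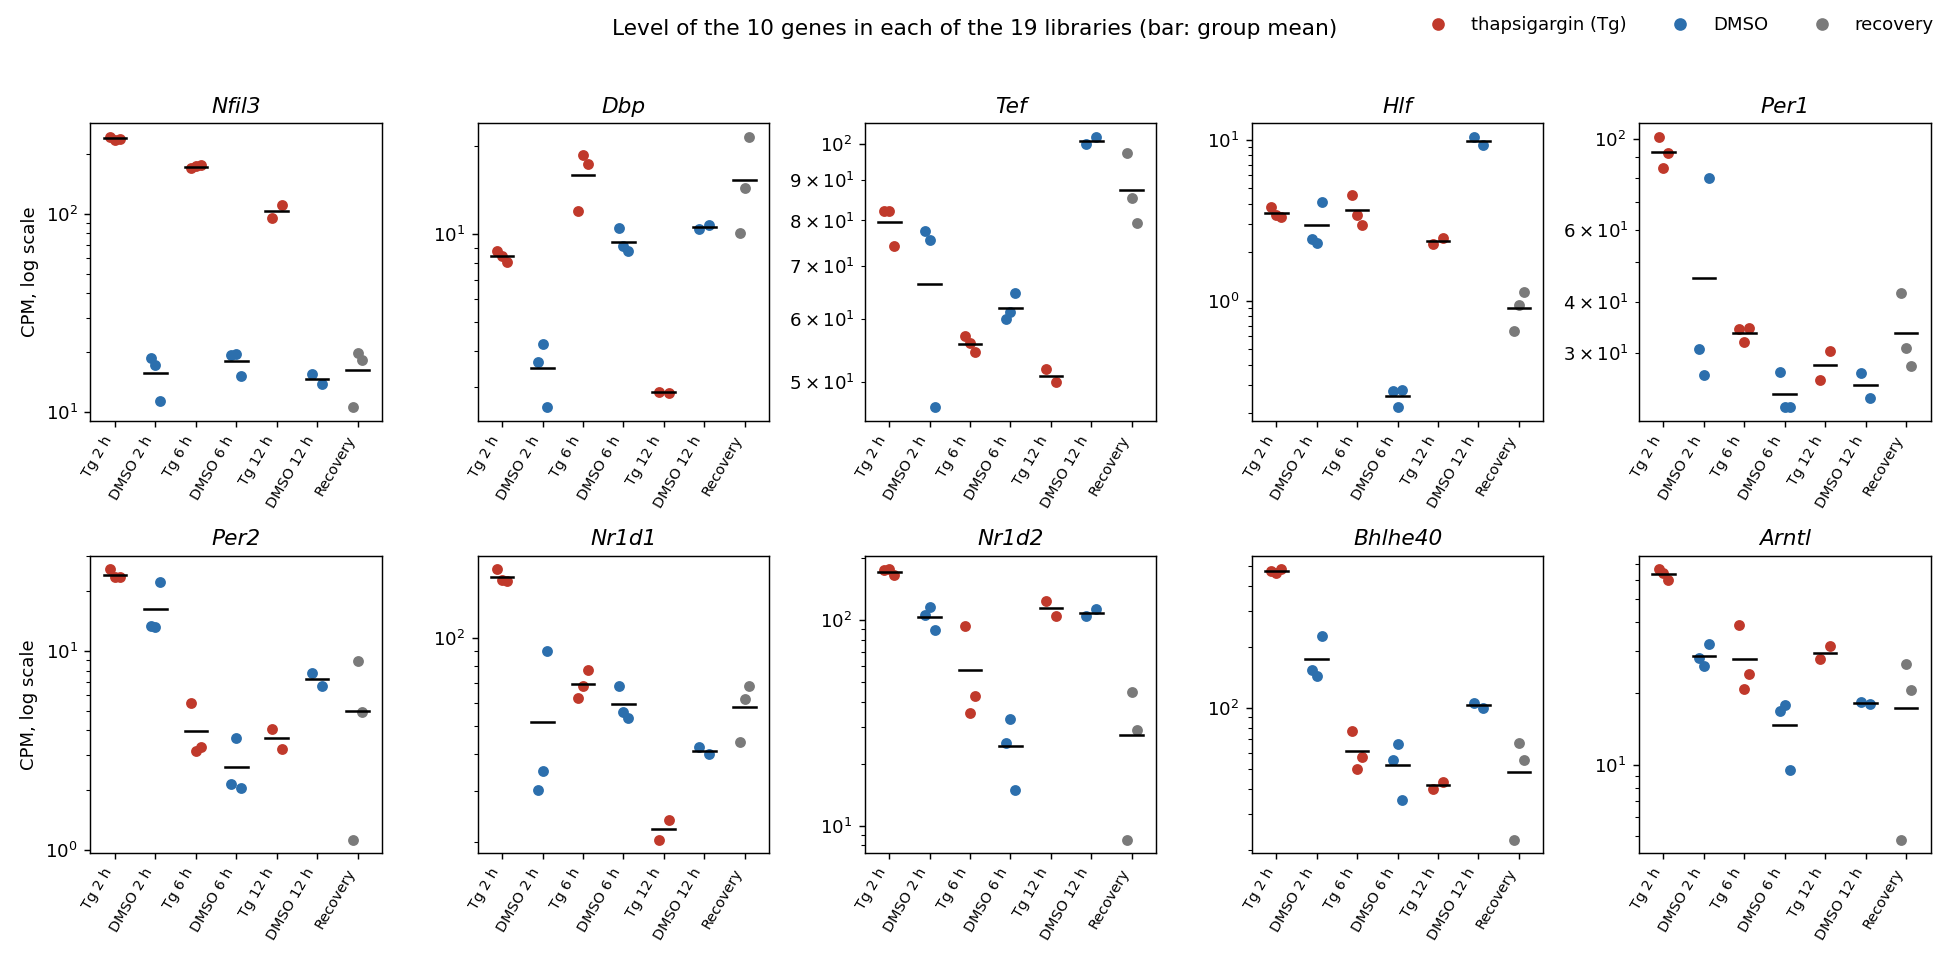
Level of each of the 10 genes in CPM (log axis) in each of the 19 libraries, by group, with a bar at the group mean. Nfil3 stands between 95.1 and 245 CPM in the 8 thapsigargin libraries and between 10.6 and 19.8 CPM in the others, whereas Hlf varies most among the DMSO groups.

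Nfil3 was the one gene of the 10 that was called higher with thapsigargin at all 3 times. At 2 h, 4 of the 10 genes rose (Nfil3, Dbp, Nr1d1 and Bhlhe40) and none fell, where 3.01% of all genes tested rose and 1.51% fell. At 6 h, 3 rose (Nfil3, Dbp and Hlf) and none fell, where 13% of all genes rose and 8.79% fell. At 12 h, 1 rose (Nfil3) and 4 fell (Dbp, Tef, Hlf and Bhlhe40), where 6.29% of all genes rose and 6.77% fell. Because the genes were chosen with earlier results known, these shares give context and are not a test of the set. A gene was called where the adjusted p of edgeR's quasi-likelihood test, with Benjamini-Hochberg adjustment over all genes, was under 0.05. No gene of the 10 was lower at 2 h or 6 h at an unadjusted p under 0.05 either, nor by DESeq2, which called 6 higher at 2 h and 4 at 6 h. The median log2 difference of the 10 genes was 1.08 at 2 h, 0.68 at 6 h and -0.94 at 12 h, where the medians of all genes were -0.04, 0.01 and 0.01. The thapsigargin and DMSO libraries did not overlap for 8 of the 10 genes at 2 h, 7 at 6 h and 8 at 12 h, where 38.5%, 37.5% and 73.1% of all genes did not overlap.

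Nfil3 (ENSMUSG00000056749.7, chr13:52967209-52981073, minus strand, GENCODE M21 on GRCm38) encodes the D-box repressor also called E4BP4. At 2 h it had 245, 237 and 240 CPM with thapsigargin, against 18.8, 17.3 and 11.4 CPM with DMSO. At 6 h it had 170, 174 and 177 CPM with thapsigargin, against 19.5, 19.7 and 15.3 CPM with DMSO. At 12 h it had 95.1 and 111 CPM with thapsigargin, against 15.6 and 13.8 CPM with DMSO. The thapsigargin and DMSO libraries did not overlap at any time, and the thapsigargin groups stood in the order 2 h, 6 h, 12 h without overlap.

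The Nfil3 level was 15.2-fold higher with thapsigargin at 2 h (241 ± 4.06 CPM, against 15.9 ± 3.93 CPM with DMSO, SD, n = 3 each). It was 9.53-fold higher at 6 h and 7.0-fold higher at 12 h. On the log2 scale these differences were 3.92 ± 0.25 (SE, edgeR adjusted p = 1.6e-07), 3.25 ± 0.24 (adjusted p = 2.4e-07) and 2.81 ± 0.29 (adjusted p = 8.3e-06). The drug effect at 12 h minus that at 2 h was -1.12 ± 0.35, which edgeR did not call (adjusted p = 0.089). DESeq2 called the same difference at -1.10 (adjusted p = 0.0040), and edgeR without the 2 libraries of high mitochondrial share at -1.01 (adjusted p = 0.0023). Between 6 h and 2 h the effects differed by -0.67 ± 0.32 (adjusted p = 0.32), and by -0.57 (adjusted p = 0.042) without those 2 libraries.

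With DMSO alone Nfil3 stayed within 11.4 to 19.7 CPM from 2 to 12 h. It differed by 0.20 ± 0.22 between DMSO at 6 h and 2 h (95% interval -0.24 to 0.64), by -0.31 ± 0.25 between 12 h and 6 h (-0.80 to 0.19) and by -0.11 ± 0.25 between 12 h and 2 h (-0.60 to 0.39), none of them called. After recovery it had 10.6, 19.8 and 18.3 CPM, a range that overlaps all 3 DMSO groups. It was 10.6-fold lower in recovery than with thapsigargin at 6 h, a log2 difference of -3.41 ± 0.24 (edgeR adjusted p = 1.6e-07). Against DMSO at 6 h the recovery difference was -0.16 ± 0.22 (95% interval -0.60 to 0.28, adjusted p = 0.90).

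The genes whose pattern was most like that of Nfil3 were taken, among 10043 protein-coding genes that averaged 5 CPM or more, by Pearson's r of log2 (CPM + 0.5) over the 19 libraries. They were Atf3 (r = 0.989), a bZIP factor of the stress response, Usp17la (0.969), a deubiquitinating enzyme gene of a family of near-identical copies whose reads may be split between them, Herpud1 (0.968), a membrane protein of ER-associated degradation, Zbtb24 (0.963), a zinc finger factor, and Zfp346 (0.956), a zinc finger protein that binds double-stranded RNA. Points of 1 group share their treatment, so these values describe the groups more than independent samples. Atf3 averaged 319 ± 20.5 CPM with thapsigargin and 16.2 ± 6.01 CPM with DMSO at 2 h, and 383 ± 10.8 and 16.8 ± 2.69 CPM at 6 h (SD, n = 3 each). Zbtb24 moved less, with 38.1 ± 1.28 CPM with thapsigargin and 20 ± 2.46 CPM with DMSO at 2 h. Among the other 9 members r ran from -0.304 for Tef to 0.692 for Arntl. The clock repressor Ciart had r = 0.890 and Cry2 0.889.

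Dbp, Tef and Hlf, the D-box activators, behaved differently from Nfil3 and from each other. Their vehicle levels moved between hours, so the drug effect and the change in DMSO are given side by side. The comparisons share the DMSO libraries, and a low or high DMSO group enters both.

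**Figure D2:**
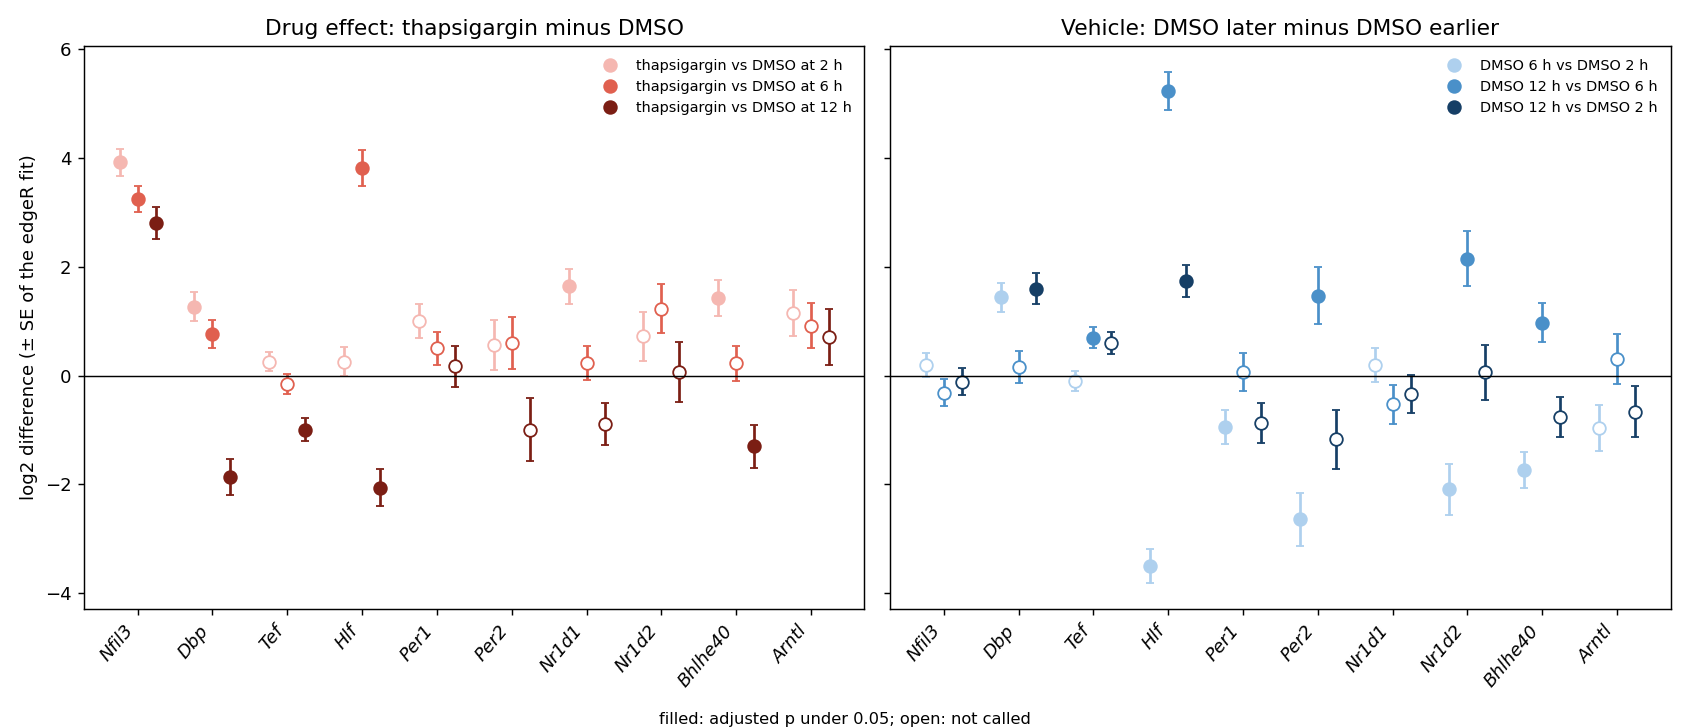
Log2 differences with the SE of the edgeR fit for each gene: thapsigargin minus DMSO at 2, 6 and 12 h (left) and DMSO at a later hour minus DMSO at an earlier hour (right), with filled points for adjusted p under 0.05. Nfil3 is high on the left and near 0 on the right, whereas Hlf reaches 3.81 at 6 h on the left and -3.50 to 5.24 on the right.

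Hlf (ENSMUSG00000003949.16, chr11:90336536-90390895, minus strand) changed the most of the 10 in the vehicle. With thapsigargin it had 3.79, 3.42 and 3.31 CPM at 2 h, 4.56, 3.40 and 2.95 CPM at 6 h, and 2.24 and 2.45 CPM at 12 h. With DMSO it had 2.43, 2.28 and 4.10 CPM at 2 h, 0.275, 0.218 and 0.277 CPM at 6 h, and 10.4 and 9.27 CPM at 12 h. The 8 thapsigargin libraries thus kept within 2.24 to 4.56 CPM, while the DMSO groups stood apart from one another. The 6 h DMSO values rest on 7 to 9 reads per library.

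The Hlf drug effect therefore took a different sign at different hours. It was 0.26 ± 0.27 at 2 h (edgeR adjusted p = 0.74), where the libraries overlapped. At 6 h Hlf was 14.0-fold higher with thapsigargin, a log2 difference of 3.81 ± 0.33 (adjusted p = 7.9e-07). At 12 h it was 4.18-fold lower with thapsigargin, a log2 difference of -2.06 ± 0.34 (adjusted p = 6.5e-04). The effects differed between hours in the test of the difference itself, by 3.56 ± 0.42 for 6 h minus 2 h (adjusted p = 1.5e-04), by -5.87 ± 0.48 for 12 h minus 6 h (adjusted p = 1.5e-05) and by -2.32 ± 0.43 for 12 h minus 2 h (adjusted p = 0.0043).

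In DMSO alone Hlf fell to 0.256 ± 0.0333 CPM at 6 h, against 2.94 ± 1.01 CPM at 2 h (log2 difference -3.50 ± 0.32, edgeR adjusted p = 7.8e-06). It rose to 9.82 ± 0.783 CPM (SD, n = 2) at 12 h, against the 6 h level (5.24 ± 0.35, adjusted p = 2.1e-07) and the 2 h level (1.74 ± 0.30, adjusted p = 0.0013). With the correction for length and GC content the differences were -2.50 for 6 h against 2 h and 4.32 for 12 h against 6 h, and the drug effect at 6 h was 3.56, all still called. Recovery libraries had 0.644, 0.937 and 1.13 CPM, which is 3.92-fold lower than with thapsigargin at 6 h (-1.97 ± 0.29, adjusted p = 1.2e-04).

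Dbp (ENSMUSG00000059824.12, chr7:45705088-45710203, plus strand) is the activator known for a wide daily swing in many tissues. At 2 h it had 8.78, 8.44 and 8.02 CPM with thapsigargin, against 3.67, 4.22 and 2.57 CPM with DMSO. At 6 h it had 12.0, 18.6 and 17.4 CPM with thapsigargin, against 10.5, 9.09 and 8.74 CPM with DMSO. At 12 h it had 2.90 and 2.87 CPM with thapsigargin, against 10.4 and 10.8 CPM with DMSO. The libraries did not overlap at any of the 3 hours, with thapsigargin above DMSO at 2 h and 6 h and below it at 12 h.

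Dbp was 2.41-fold higher with thapsigargin at 2 h, a log2 difference of 1.27 ± 0.26 (edgeR adjusted p = 0.011). The call was lost without replicate 1 of thapsigargin at 2 h (1.24, adjusted p = 0.051). At 6 h the difference was 0.76 ± 0.26 (adjusted p = 0.047), a call lost in 5 of the 6 fits that left out 1 of the 6 h libraries. It was also lost with the length and GC correction (0.70, adjusted p = 0.11), with total count scaling (0.15), in a fit of the 6 h groups only (0.070) and with another filter on low counts (0.084). A replicate block lost the 6 h call as well (0.74, adjusted p = 0.077). At 12 h Dbp was 3.66-fold lower with thapsigargin (-1.87 ± 0.33, adjusted p = 0.0011). The effect at 12 h differed from that at 2 h by -3.14 ± 0.43 (adjusted p = 3.4e-04) and from that at 6 h by -2.63 ± 0.42 (adjusted p = 0.0063). The 12 h minus 6 h call was lost without replicate 1 or replicate 2 of thapsigargin at 12 h (adjusted p = 0.074 and 0.068) and with total count scaling (0.098).

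In DMSO alone Dbp was higher at 6 h than at 2 h by 1.44 ± 0.27 (edgeR adjusted p = 7.9e-04), and at 12 h than at 2 h by 1.60 ± 0.29 (adjusted p = 0.0022). With the length and GC correction the first of these was 0.50 (adjusted p = 0.23) and the second 1.62 (adjusted p = 0.0070). Dbp differed by 0.16 (adjusted p = 0.68) between DMSO at 12 h and 6 h, and by 1.12 (adjusted p = 0.033) with that correction. Dbp shares 539 exon bases with Sphk2 on the other strand, and the strand setting of the counting is not given in the sources used here. Sphk2 had 17.6 to 19 CPM with thapsigargin and 11.2 to 13.6 CPM with DMSO at 2 h, and 41.4 and 48.3 CPM against 19.9 and 19.5 CPM at 12 h. At 2 h Sphk2 stood higher with thapsigargin, as Dbp did, and at 12 h it stood higher where Dbp was lower. The part of the overlap in the Dbp counts was not tested.

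Tef (ENSMUSG00000022389.15, chr15:81802421-81826863, plus strand), the third activator, held the highest level of the 3. It had 82.3, 82.3 and 74.3 CPM with thapsigargin and 77.7, 75.5 and 46.5 CPM with DMSO at 2 h, and 57.1, 56.0 and 54.6 CPM against 60, 61.3 and 64.8 CPM at 6 h. At 12 h it had 51.9 and 50 CPM with thapsigargin, against 99.8 and 102 CPM with DMSO. The drug effects were 0.26 ± 0.18 at 2 h (edgeR adjusted p = 0.53), -0.15 ± 0.18 at 6 h (adjusted p = 0.62) and -0.99 ± 0.22 at 12 h (adjusted p = 0.0058), so that Tef was 1.98-fold lower at 12 h. The effect at 12 h differed from that at 2 h by -1.25 ± 0.28 (adjusted p = 0.015). The call at 12 h was lost without replicate 2 of thapsigargin at 12 h (-0.96, adjusted p = 0.061) and with total count scaling (-0.98, adjusted p = 0.085). The call of the difference was lost in each of the 4 fits that left out 1 of the 12 h libraries (adjusted p = 0.062 to 0.087).

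In DMSO alone Tef rose at 12 h against 6 h (0.70 ± 0.20, edgeR adjusted p = 0.015), a call lost without either of the 12 h DMSO libraries (adjusted p = 0.079 without replicate 1 and 0.089 without replicate 2). At 12 h against 2 h it differed by 0.60 (adjusted p = 0.079), and by 0.69 (adjusted p = 0.028) with the length and GC correction. Tef also rose in recovery against thapsigargin at 6 h, with 97.4, 85.3 and 79.5 CPM in recovery (0.64 ± 0.18, adjusted p = 0.013), a call lost with total count scaling (0.43, adjusted p = 0.31) and in a fit of these groups only (0.65, adjusted p = 0.16). At 12 h Dbp, Tef and Hlf were lower with thapsigargin and Nfil3 was higher.

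Per1 (ENSMUSG00000020893.17, chr11:69095217-69109960, plus strand), a repressor of Arntl and Clock, depended at 2 h on 1 vehicle library and on the test and scaling used. It had 101, 84.7 and 92.1 CPM with thapsigargin, against 30.7, 26.5 and 80 CPM with DMSO. Replicate 3 of DMSO, the library with 15.8% mitochondrial reads, stood near the thapsigargin libraries. With it the drug effect was 1.01 ± 0.31 (edgeR adjusted p = 0.083), and without it 1.69 (adjusted p = 2.3e-04). With that library kept, DESeq2 (1.01, adjusted p = 0.045) and edgeR with total count scaling (1.29, adjusted p = 0.036) also gave a call. At 6 h Per1 had 34.3, 31.9 and 34.4 CPM with thapsigargin and 27.0, 22.1 and 22.1 CPM with DMSO (0.50 ± 0.31, adjusted p = 0.30), and at 12 h 25.7 and 30.3 CPM against 26.8 and 23.2 CPM (0.17 ± 0.38, adjusted p = 0.89). Without that library the drug effect at 6 h differed from that at 2 h by -1.19 (adjusted p = 0.014), where with it the difference was -0.52 ± 0.44 (adjusted p = 0.70). For 12 h minus 2 h the difference was -1.53 (adjusted p = 0.0043) without that library and -0.85 (adjusted p = 0.47) with it. The 6 h drug effect was called without both libraries of high mitochondrial share (0.47, adjusted p = 0.0094), neither of which is in the groups compared there.

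**Figure D3:**
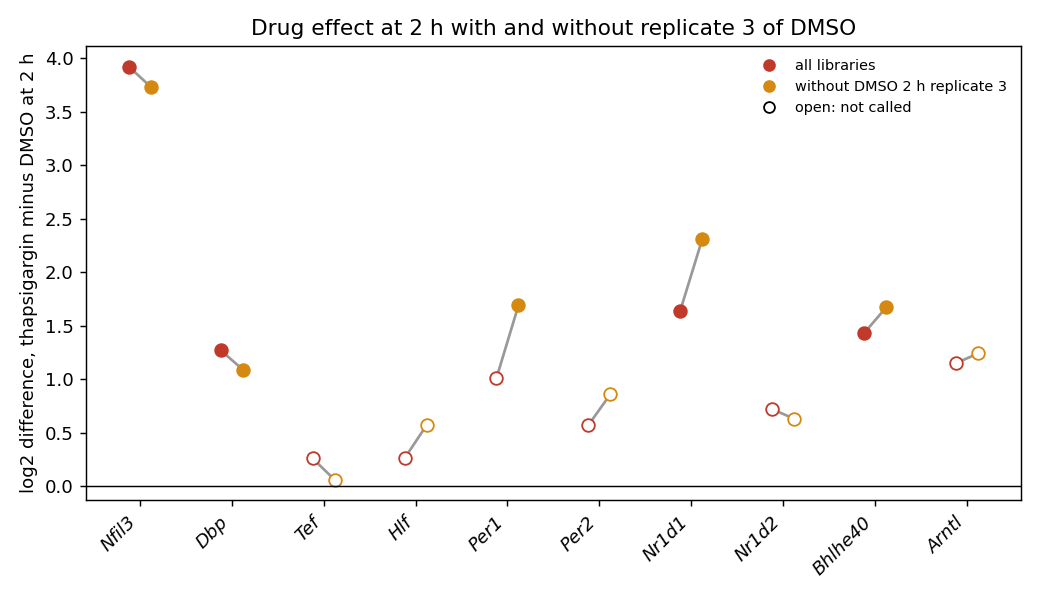
Log2 difference of thapsigargin minus DMSO at 2 h for each gene, with all libraries (left point of each pair) and without replicate 3 of DMSO at 2 h (right point), filled where adjusted p was under 0.05. Per1 stands at 1.01 and not called with it, and at 1.69 and called without it.

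Per2 (ENSMUSG00000055866.9, chr1:91415982-91459324, minus strand), the partner repressor, was called in no comparison of thapsigargin with DMSO when all libraries and groups were fitted. It had 25.8, 23.6 and 23.5 CPM with thapsigargin and 13.4, 13.3 and 22.4 CPM with DMSO at 2 h (0.57 ± 0.46, edgeR adjusted p = 0.62). At 6 h it had 5.50, 3.16 and 3.29 CPM with thapsigargin and 2.14, 3.67 and 2.06 CPM with DMSO (0.60 ± 0.48, adjusted p = 0.43). At 12 h it had 4.08 and 3.24 CPM with thapsigargin and 7.82 and 6.73 CPM with DMSO (-0.99 ± 0.58, 95% interval -2.14 to 0.15, adjusted p = 0.34). It was called at 12 h without the 2 libraries of high mitochondrial share (-1.01, adjusted p = 0.045) and in a fit of the 12 h groups only (-0.98, adjusted p = 5.3e-07). The first of these fits dropped no 12 h library, and its spread is estimated over all groups together. The second called 9335 of the 18039 genes. The drug effect at 12 h minus that at 2 h was -1.56 (adjusted p = 0.33), and was called without those 2 libraries (-1.94, adjusted p = 0.011) and in a fit of these groups only (-1.55, adjusted p = 0.016). In the vehicle Per2 was 6.23-fold lower in DMSO at 6 h than at 2 h (-2.64 ± 0.49, adjusted p = 8.5e-04). It was higher at 12 h than at 6 h by 1.47 ± 0.52 (adjusted p = 0.040), a call lost without any 1 of 4 of the 5 libraries (adjusted p = 0.10 to 0.16) and with the length and GC correction (1.23, adjusted p = 0.075).

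Nr1d1 (ENSMUSG00000020889.11, chr11:98767932-98775333, minus strand) encodes REV-ERB alpha, the repressor of Arntl. At 2 h it had 171, 157 and 156 CPM with thapsigargin, against 30.2, 35.0 and 89.8 CPM with DMSO, where replicate 3 was again the highest DMSO library. It was 3.12-fold higher with thapsigargin (1.64 ± 0.32, edgeR adjusted p = 0.0069), and the difference was 2.37 (adjusted p = 9.2e-07) without the 2 libraries of high mitochondrial share. At 6 h it had 62.2, 68.5 and 77.6 CPM with thapsigargin and 68.5, 55.5 and 53.3 CPM with DMSO (0.23 ± 0.31, adjusted p = 0.67). By 12 h the values were 20.4 and 23.9 CPM with thapsigargin and 42.2 and 39.9 CPM with DMSO (-0.89 ± 0.38, adjusted p = 0.16), and without those 2 libraries the same contrast was called at -0.91 (adjusted p = 6.4e-04). Neither of them is a 12 h library, and the spread is estimated over all groups together. The drug effect at 12 h differed from that at 2 h by -2.53 ± 0.50 (adjusted p = 0.0064), a call lost without replicate 1 of thapsigargin at 12 h (-2.42, adjusted p = 0.057).

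Nr1d1 was called in none of the vehicle comparisons with all libraries. Between DMSO at 6 h and 2 h the difference was 0.19 ± 0.31 (edgeR adjusted p = 0.62), and 0.86 (adjusted p = 0.0053) without replicate 3 of DMSO at 2 h. It shares 263 exon bases with Thra on the other strand. Thra had 16.0, 18.3 and 15.8 CPM with thapsigargin and 23.3, 22.3 and 18.5 CPM with DMSO at 2 h, the opposite order to Nr1d1 at that hour. The part of the overlap in the Nr1d1 counts was not tested.

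Nr1d2 (ENSMUSG00000021775.11, chr14:18204054-18239127, minus strand), its REV-ERB beta paralog, moved mainly with the hour in the vehicle. It had 174, 176 and 165 CPM with thapsigargin and 106, 116 and 89.4 CPM with DMSO at 2 h (0.72 ± 0.45, edgeR adjusted p = 0.47), without overlap. By 6 h the values were 93.3, 35.1 and 42.7 CPM with thapsigargin, against 25.2, 33.0 and 14.9 CPM with DMSO. Replicate 1 of thapsigargin was the highest of these, and in that library long transcripts also stood highest of the 6 h libraries (0.03 on the log2 scale). The difference was 1.23 ± 0.45 (adjusted p = 0.066), 0.68 (adjusted p = 0.35) without that library, and 0.95 (adjusted p = 0.012) with the length and GC correction. By 12 h the values were 124 and 104 CPM with thapsigargin and 104 and 113 CPM with DMSO (0.07 ± 0.55, 95% interval -1.0 to 1.14).

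In DMSO alone Nr1d2 was 4.26-fold lower at 6 h than at 2 h (-2.09 ± 0.47, edgeR adjusted p = 0.0024). It was 4.45-fold higher at 12 h than at 6 h (2.15 ± 0.50, adjusted p = 0.0062). With the length and GC correction these were -1.14 (adjusted p = 0.0040) and 1.21 (adjusted p = 0.0084), smaller but still called. In recovery against thapsigargin at 6 h Nr1d2 differed by -1.05 (adjusted p = 0.10), and by -0.91 (adjusted p = 0.014) with the correction.

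Bhlhe40 (ENSMUSG00000030103.11, chr6:108660629-108666925, plus strand), also called Dec1, encodes a repressor that competes for E-boxes. At 2 h it had 469, 460 and 480 CPM with thapsigargin, against 153, 143 and 227 CPM with DMSO, 2.70-fold higher (1.43 ± 0.33, edgeR adjusted p = 0.020). That call was lost in 5 of the 6 fits that left out 1 of these libraries (adjusted p = 0.062 to 0.083), with differences of 1.31 to 1.45, and with total count scaling (1.68, adjusted p = 0.072). By 6 h the values were 76.9, 49.8 and 57.6 CPM with thapsigargin and 55.4, 66.5 and 35.3 CPM with DMSO (0.23 ± 0.32, adjusted p = 0.69). By 12 h the values were 40.1 and 43.2 CPM with thapsigargin, against 106 and 99.6 CPM with DMSO, 2.46-fold lower (-1.30 ± 0.40, adjusted p = 0.043), and the call was lost without any 1 of the 4 libraries (adjusted p = 0.13 to 0.22) and with total count scaling (0.21).

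The Bhlhe40 drug effect at 12 h differed from that at 2 h by -2.73 ± 0.52 (edgeR adjusted p = 0.0052). For 6 h minus 2 h it was -1.20 (adjusted p = 0.19), and -1.29 (adjusted p = 0.043) with the length and GC correction. In DMSO alone Bhlhe40 was 3.32-fold lower at 6 h than at 2 h (-1.73 ± 0.33, adjusted p = 0.0010). It was 0.97 ± 0.36 higher on the log2 scale at 12 h than at 6 h (adjusted p = 0.046), a call lost in 4 of the 5 fits without 1 of these libraries (adjusted p = 0.080 to 0.17).

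Arntl (ENSMUSG00000055116.8, chr7:113207465-113314126, plus strand), the activator of the loop, was called in no comparison when all libraries and groups were fitted with edgeR. It had 66.5, 64.5 and 60.3 CPM with thapsigargin and 28.1, 26.0 and 32.1 CPM with DMSO at 2 h. By 6 h the values were 38.9, 20.8 and 24.2 CPM with thapsigargin and 16.9, 17.8 and 9.45 CPM with DMSO, and at 12 h 27.8 and 31.5 CPM against 18.3 and 18.0 CPM. The thapsigargin libraries stood above the DMSO libraries at all 3 hours without overlap. The differences were 1.15 ± 0.42 at 2 h (edgeR adjusted p = 0.15), 0.92 ± 0.42 at 6 h (adjusted p = 0.13) and 0.71 ± 0.51 at 12 h (adjusted p = 0.47). Without the 2 libraries of high mitochondrial share the first 2 of these were called, at 1.30 (adjusted p = 0.0083) and 0.90 (adjusted p = 0.0091). Neither library is in the groups compared at 6 h, and the spread is estimated over all groups together. DESeq2 (1.16, adjusted p = 0.040) and the length and GC correction (1.02, adjusted p = 0.043) also gave a call at 2 h, and fits of the compared groups only did so at 2 h (1.18, adjusted p = 0.0028) and 12 h (0.73, adjusted p = 7.1e-10). That 12 h fit, with 2 libraries per group, called 9335 of the 18039 genes.

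Most of the 10 genes also moved in the vehicle alone. Between DMSO at 6 h and 2 h, 5 fell (Hlf, Per2, Nr1d2, Bhlhe40 and Per1) and 1 rose (Dbp), but 25% of all genes fell there and 24.6% rose. The Per1 call was lost without replicate 3 of DMSO at 2 h (-0.27, edgeR adjusted p = 0.25, against -0.95 ± 0.31 and 0.021 with it), and also without replicate 2 or replicate 3 of DMSO at 6 h (0.057 and 0.070). Between DMSO at 12 h and 6 h, 5 rose (Hlf, Nr1d2, Per2, Bhlhe40 and Tef) and none fell by edgeR, by DESeq2 or at an unadjusted p under 0.05, where 18.7% of all genes rose and 16.8% fell. Between DMSO at 12 h and 2 h, 2 rose (Hlf and Dbp), where 3.03% of all genes did. The first 2 of these counts are read against high backgrounds, and the hour cannot be told apart from the difference in transcript length between the sets of libraries.

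The drug effects themselves were then compared between hours. For 6 h minus 2 h, 1 of the 10 genes was called (Hlf, higher), where 2.12% of all genes were called higher. For 12 h minus 6 h, 2 were called (Hlf and Dbp, both lower), where 0.532% of all genes were called lower. For 12 h minus 2 h, 5 were called, all lower (Dbp, Bhlhe40, Nr1d1, Hlf and Tef), where 3.15% of all genes were called lower. Nfil3, Per1, Per2, Nr1d2 and Arntl were called in none of the 3 by edgeR with all libraries and groups.

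After 48 h without the drug, Nfil3 and Hlf had fallen and Tef had risen against thapsigargin at 6 h. These were 2 of the 10 genes lower and 1 higher, where 13.9% of all genes fell and 11.6% rose. Against DMSO at 6 h, 1 gene was called (Hlf, 1.84 ± 0.33 higher, edgeR adjusted p = 0.019), where 0.205% of all genes were called higher. The Hlf call was lost without any 1 of 5 of the 6 libraries (adjusted p = 0.055 to 0.12) and with total count scaling (0.11). Its direction depended on the vehicle hour: Hlf was lower in recovery than in DMSO at 2 h (-1.66 ± 0.29, adjusted p = 7.2e-04) and at 12 h (-3.40 ± 0.32, adjusted p = 1.2e-05), where 48.1% and 32.1% of all genes were called in either direction. No vehicle group was cultured as long as the recovery group, so an effect of recovery and one of longer culture cannot be told apart.

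Replicate 1 of recovery, with 14.89% mitochondrial reads, was low for several genes. It had 1.13 CPM of Per2 against 8.95 and 4.97 in the other 2, 8.54 CPM of Nr1d2 against 44.4 and 29.3, 22.5 CPM of Bhlhe40 against 67.2 and 55.2, and 4.83 CPM of Arntl against 26.5 and 20.7. It was the highest recovery library for Per1 (42.0 CPM against 30.9 and 27.9) and Tef (97.4 against 85.3 and 79.5). Its long transcripts also stood lowest of all libraries relative to short ones (-1.48 on the log2 scale). Without both libraries of high mitochondrial share, Dbp (0.90, edgeR adjusted p = 0.035) and Per2 (1.38, adjusted p = 0.035) were also called higher in recovery than in DMSO at 6 h.

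Levels of different genes were compared per 1000 bases of exon. With thapsigargin Nfil3 ranked first of the 10 at all 3 hours, at 119 CPM per 1000 bases at 2 h, 85.7 at 6 h and 50.8 at 12 h. With DMSO its rank was 6 at 2 h (7.82), 3 at 6 h (8.99) and 5 at 12 h (7.26), and in recovery it was 4 (8.01). Bhlhe40 ranked first in DMSO at 2 h (37.0) and 12 h (21.8), and Nr1d1 in DMSO at 6 h (19.2) and in recovery (18.9). Hlf ranked last in each group other than DMSO at 12 h, where Per2 did.

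**Figure D4:**
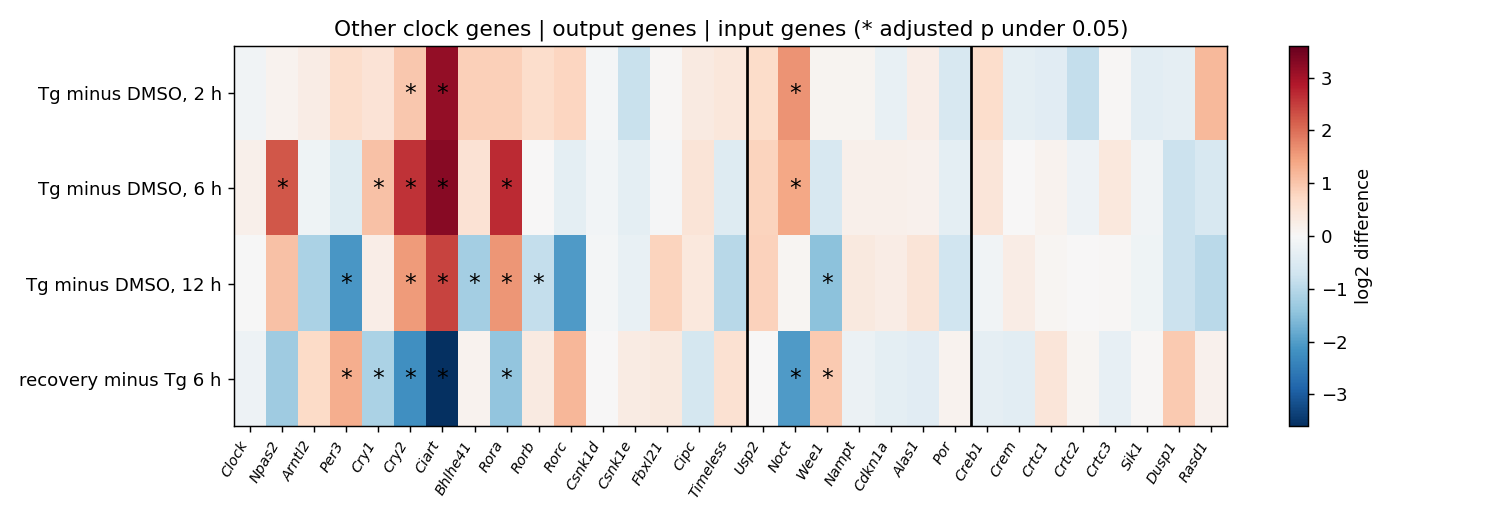
Log2 differences (color) of other clock genes, clock output genes and clock input genes with thapsigargin against DMSO at 2, 6 and 12 h and in recovery against thapsigargin at 6 h, with a star where adjusted p was under 0.05. Ciart and Cry2 are red with a star in all 3 drug rows and blue with a star in the recovery row, and no input gene has a star.

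Of 16 other clock genes, Ciart and Cry2 followed the Nfil3 pattern of being called higher at all 3 hours. Ciart, a repressor of Arntl and Clock, had 18.1, 19.2 and 18.1 CPM with thapsigargin and 1.93, 1.89 and 2.40 CPM with DMSO at 2 h. Its log2 differences were 3.15 ± 0.32 at 2 h, 3.27 ± 0.32 at 6 h and 2.43 ± 0.38 at 12 h (edgeR adjusted p = 3.1e-05, 3.0e-06 and 3.9e-04). Cry2, a cryptochrome that holds Arntl and Clock back, was higher by 0.97 ± 0.18, 2.59 ± 0.19 and 1.53 ± 0.23 (adjusted p = 0.0063, 2.4e-07 and 2.8e-04). Its effect at 6 h exceeded that at 2 h by 1.62 ± 0.26 (adjusted p = 0.0019). In recovery against thapsigargin at 6 h both fell, Ciart by 3.58 ± 0.32 and Cry2 by 2.21 ± 0.19.

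At 2 h Ciart and Cry2 were the 2 of the 16 called, both higher, where 3.01% of all genes rose. The median of the 16 was 0.44, and that of all genes -0.04. At 6 h, 5 of the 16 rose, where 13% of all genes did, with a median of 0.10 (0.01 for all genes). The 5 were Ciart, the nuclear receptor Rora (2.69 ± 0.43), Cry2, the Clock relative Npas2 (2.24 ± 0.59) and Cry1 (1.05 ± 0.28). Rora had 1.84, 1.91 and 1.62 CPM with thapsigargin and 0.0916, 0.311 and 0.435 CPM with DMSO, and Npas2 was at or below 1.03 CPM in all 6 libraries. The call of Cry1 was lost without replicate 1 of thapsigargin at 6 h (adjusted p = 0.072) and without replicate 3 of DMSO at 6 h (0.058).

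At 12 h, 3 of the 16 rose (Ciart, Rora and Cry2) and 3 fell, where 6.29% of all genes rose and 6.77% fell. The median of the 16 was -0.04, and that of all genes 0.01. Per3, the third Period gene, had 5.30 and 5.36 CPM with thapsigargin against 23.0 and 22.6 CPM with DMSO (-2.09 ± 0.35, edgeR adjusted p = 6.0e-04). Bhlhe41, the Dec2 paralog of Bhlhe40, had 17.9 and 14.6 CPM against 38.9 and 36.5 CPM (-1.21 ± 0.31, adjusted p = 0.015). The nuclear receptor Rorb fell by 0.87 ± 0.22 (adjusted p = 0.013). The calls of Bhlhe41, Rorb and Rora were each lost without any 1 of the 4 libraries at 12 h (adjusted p = 0.059 to 0.21). The drug effects at 12 h and 2 h differed by -2.73 ± 0.44 for Per3, by -2.09 ± 0.40 for Bhlhe41 and by -1.49 ± 0.28 for Rorb (adjusted p = 0.0014, 0.0052 and 0.0042).

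Of 7 clock output genes, Noct, a phosphatase gene with a daily rhythm in many tissues, was the one called at 2 h and at 6 h. Of all genes, 3.01% rose at 2 h and 13% at 6 h, and 6.77% fell at 12 h. Noct had 285, 291 and 277 CPM with thapsigargin and 78.3, 75.4 and 123 CPM with DMSO at 2 h (1.62 ± 0.23, edgeR adjusted p = 5.3e-04), and was higher by 1.4 ± 0.23 at 6 h (adjusted p = 3.4e-04). By 12 h the values were 25.9 and 29.0 CPM with thapsigargin and 26.3 and 26.4 CPM with DMSO. Its effect at 12 h differed from that at 2 h by -1.57 ± 0.36 (adjusted p = 0.016), a call lost without any 1 of the 12 h libraries (adjusted p = 0.066 to 0.10). The cell cycle kinase gene Wee1 was the output gene called at 12 h, with 22.6 and 22.6 CPM with thapsigargin against 60.9 and 64.4 CPM with DMSO (-1.47 ± 0.39, adjusted p = 0.018), a call also lost without any 1 of the 4 libraries (adjusted p = 0.073 to 0.12).

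None of the 8 clock input genes (Creb1, Crem, Crtc1, Crtc2, Crtc3, Sik1, Dusp1 and Rasd1) was called by edgeR with thapsigargin at any hour. At an unadjusted p under 0.05 there were 2 at 2 h, 1 at 6 h and 0 at 12 h, and DESeq2 called 1 at 2 h and none later. Of all genes, edgeR called 3.01% higher and 1.51% lower at 2 h, 13% and 8.79% at 6 h, and 6.29% and 6.77% at 12 h. The list holds genes that carry calcium and cAMP signals or respond to them, and the activity of their proteins was not measured. In the vehicle 4 of the 8 fell at 6 h against 2 h (Sik1, Dusp1, Creb1 and Crtc3) and 1 rose (Rasd1), where 25% of all genes fell and 24.6% rose. Sik1, a kinase that restrains CREB signals, had 26.2, 24.4 and 23.3 CPM in DMSO at 6 h and 82.0, 66.9 and 127 CPM in DMSO at 2 h (-1.90 ± 0.26, edgeR adjusted p = 1.1e-04). Dusp1, an early-response phosphatase gene, had 84.6, 95.6 and 37.2 CPM in DMSO at 6 h and 150, 147 and 257 CPM in DMSO at 2 h (-1.35 ± 0.43, adjusted p = 0.017), a call lost without replicate 3 of either group (adjusted p = 0.084 without that of 2 h and 0.081 without that of 6 h). Creb1, the transcription factor itself, reversed its sign with the length and GC correction (0.60, against -0.91 ± 0.23 without it).

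In the vehicle the other clock genes also moved between hours. At 6 h against 2 h, 7 of the 16 fell and 1 rose (Ciart, 1.46 ± 0.31), where 25% of all genes fell and 24.6% rose, so that the share called was near that of all genes. Clock itself, the partner of Arntl, had 49.5, 64.9 and 39.9 CPM in DMSO at 6 h and 145, 165 and 223 CPM in DMSO at 2 h (-1.79 ± 0.28, edgeR adjusted p = 3.2e-04). At 12 h against 6 h, 5 of the 16 rose, where 18.7% of all genes did, and none fell by edgeR, where 1 was lower at an unadjusted p under 0.05 and DESeq2 called 2 lower. The Clock difference was 1.42 ± 0.31 (adjusted p = 0.0043) there, but -0.01 (adjusted p = 0.97) with the length and GC correction, and at 6 h against 2 h it was no longer called with that correction (adjusted p = 0.11). With thapsigargin Clock had 159, 171 and 154 CPM at 2 h, 86.9, 41.1 and 47.7 CPM at 6 h, and 148 and 127 CPM at 12 h, and it was called in no drug comparison.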

How the data were processed

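The 19 libraries were made from polyadenylated RNA of C2C12 cells. Per the submitters' processing notes, the tools used included Trim Galore, STAR 2.5.3a, bedtools 2.31.0 and DESeq2, with the mouse build mm10. The deposited files hold the authors' raw counts per gene, as whole numbers. For the counting, the program, strand setting and annotation are not named in the sources used here. The 5 lines of unassigned reads were left out of library sizes and tests. They held 13.72% to 28.74% of all reads in a file. Of 55401 identifiers, 55141 matched GENCODE M21 by base identifier. No 2 replicates agreed within sampling noise.

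After scaling with TMM factors and the filter of filterByExpr on groups, edgeR 4.0.16 fitted 1 quasi-likelihood model (R 4.3.3, limma 3.58.1) with 7 group means, no replicate block and a common biological coefficient of variation of 0.352. Tests were two-sided, and p-values were adjusted over the 18039 genes by the Benjamini-Hochberg method. The SE of a log2 difference was its size over the square root of the F statistic, and 95% intervals are 1.96 SE either way. The script was tested on simulated counts. Alternatives were other scalings, another filter, DESeq2 1.42.0, a replicate block, spline offsets for transcript length and GC content, only the groups compared, other vehicle hours, and leaving out libraries. Tables and plots used Python 3.11.15, pandas 2.3.3 and matplotlib 3.10.9. The 12 h libraries held 17305962 to 21825491 gene reads and the 2 h libraries 32129804 to 40964140, so low levels are less precise at 12 h.

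The 10 genes are named in every comparison, other list genes where called (up to 6 per list and comparison, by size), and the 5 genes most like Nfil3 by correlation. The members and lists were chosen with earlier results of these data known. Sphk2 and Thra are named because they are protein-coding genes that overlap members. Tef, Bhlhe40 and Arntl also share 193, 118 and 33 exon bases with antisense genes on the other strand (Gm17597, 0610040F04Rik and Gm45355). As the strand setting is not known, the same limit holds for them. A gene first placed among the other clock genes is not reported here.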

Additional observations from a re-analysis of the deposited data

Results flagged for a closer look

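The drug effect differed between hours, by edgeR's test of the difference itself, for 5 of the 10 genes and 5 genes of the other lists. Hlf differed by 3.56 between 6 h and 2 h, by -5.87 between 12 h and 6 h and by -2.32 between 12 h and 2 h. Dbp differed by -2.63 between 12 h and 6 h and by -3.14 between 12 h and 2 h. Between 12 h and 2 h the effects also differed by -1.25 for Tef, -2.53 for Nr1d1, -2.73 for Bhlhe40, -2.73 for Per3, -2.09 for Bhlhe41, -1.49 for Rorb and -1.57 for Noct. Cry2 differed by 1.62 between 6 h and 2 h. All values are log2 differences of the later minus the earlier drug effect. The call of Dbp between 12 h and 6 h was lost without replicate 1 or replicate 2 of thapsigargin at 12 h (adjusted p = 0.074 and 0.068), that of Nr1d1 without replicate 1 of that group (0.057), and those of Tef and Noct without any 1 of the 12 h libraries (0.062 to 0.10). With total count scaling the calls of Cry2 (0.069), Dbp between 12 h and 6 h (0.098), Tef (0.098), Bhlhe41 (0.071), Rorb (0.056) and Noct (0.12) were lost, each with its direction kept.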

How the results depend on the processing

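Over all alternatives 1525 values of the 10 genes kept their side of the threshold, of which 55 (not called in either) took the opposite sign, 67 were no longer called, 63 became called and 5 reversed. Reversed here means the opposite sign with a call in either fit. The Nfil3 calls against DMSO at 2, 6 and 12 h held in every alternative run. With DMSO at 2 h as the vehicle, the recovery differences of Hlf (-1.66), Per2 (-1.67) and Nr1d2 (-1.92) reversed, and with DMSO at 12 h those of Hlf (-3.40) and Nr1d2 (-1.98). Against DMSO at 6 h, Per2 and Nr1d2 had not been called. With the length and GC offsets Creb1 reversed in DMSO at 6 h against 2 h (0.60) and, with Clock, at 12 h against 6 h (-0.54 and -0.01). The causes were not tested.

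The number of the 10 genes called changed as follows. With total count scaling it was 3 for thapsigargin at 12 h, 0 for recovery against DMSO at 6 h, 3 for DMSO at 12 h against 6 h and 1 for the drug effect at 12 h minus 6 h. Without the 2 libraries of high mitochondrial share it was 6 for thapsigargin at 6 h, 3 for recovery against DMSO at 6 h, 5 for the drug effect at 6 h minus 2 h, 5 for 12 h minus 6 h and 8 for 12 h minus 2 h. In that setting 6566 of all genes were called for thapsigargin at 6 h, 1974 for 6 h minus 2 h and 732 for 12 h minus 6 h. With all libraries these were 3926, 719 and 103. Thapsigargin at 6 h and 12 h minus 6 h use neither library, but share the spread estimated over all groups. With only the groups compared the number of the 10 genes was 8 for thapsigargin at 12 h, 0 for recovery against DMSO at 6 h and 8 for the drug effect at 12 h minus 2 h, where 9335, 0 and 3263 of all genes were called. With the filter of 10 counts it was 3 for DMSO at 12 h against 6 h. With DESeq2 and with the length and GC offsets it was 2 for the drug effect at 6 h minus 2 h. Recovery gave 5 against DMSO at 2 h and 3 against DMSO at 12 h, near the 48.1% and 32.1% of all genes called there in either direction.

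Deviations of same-numbered libraries correlated between -0.69 and 0.69. Libraries of different numbers were not compared, so these values cannot decide whether the replicate numbers pair the samples. With a replicate block, DMSO at 12 h against 6 h gave 3 of the 10 genes called in place of 5, and every other count stayed within 1.5 times.

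Leaving out 1 library at a time gave 2 to 5 called genes for thapsigargin at 2 h, 2 to 3 at 6 h and 3 to 4 at 12 h. It gave 3 to 4 for recovery against thapsigargin, 0 to 1 for recovery against DMSO at 6 h, and in the vehicle 5 to 6 for 6 h against 2 h, 2 to 5 for 12 h against 6 h and 2 for 12 h against 2 h. For the drug effects it gave 1 to 3 for 6 h minus 2 h, 1 to 2 for 12 h minus 6 h and 3 to 6 for 12 h minus 2 h. At 12 h the single library left is assumed to vary like the other groups.

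Total count scaling shifted the median of all genes by 0.21 for thapsigargin at 2 h, 0.13 at 6 h and 0.29 for DMSO at 12 h against 6 h. The number of all genes called ranged over the alternatives that keep whole groups from 518 to 2167 for thapsigargin at 2 h (816 in the report), 2901 to 6566 at 6 h (3926), 1546 to 9335 at 12 h (2356), 0 to 424 for recovery against DMSO at 6 h (59) and 1289 to 6229 for recovery against thapsigargin (4601). Depth limits Hlf in DMSO at 6 h, with 7 to 9 reads per library.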
